A study of Mus musculus with 12 samples.

Results

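The integrated stress response is described here through 43 genes in Min6 cells, a mouse insulinoma line that makes and secretes insulin, after knockdown of Il22ra1, the ligand-binding chain of the interleukin-22 receptor. The genes were chosen by name as the kinases of the pathway, its transcription factors, their targets in amino acid supply and the stress hormones they induce. They are 43 of the 24421 genes in the count files, and all 43 were among the 13102 genes with enough reads to be tested. The cells, of wild-type genotype in the labels, were infected for 48 h with an adenovirus carrying a hairpin against Il22ra1 (sh-Il22ra1, 6 libraries) or a control adenovirus (sh-ctrl, 6 libraries, whose titles carry GFP). All 12 libraries received 0.3 mM palmitate for 24 h, so no library shows the response without palmitate or without virus. In the treatment field, sh-Il22ra1 replicates 2 to 6 carry a gene name whose last digit rises from library to library, and grouping followed the titles. Nothing says that the 6 libraries of a group are separate cultures. The p-values therefore speak to variation among these libraries alone, and that variation could be technical.

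In this pathway, kinases that sense different stresses phosphorylate the translation factor eIF2, which lowers protein synthesis in general and favours translation of the mRNA of the transcription factor ATF4. ATF4 pairs with C/EBP proteins on composite DNA elements and raises genes of amino acid synthesis and uptake, of feedback and of cell death. Because ATF4 is controlled largely through translation, its mRNA is only a partial readout. In beta cells, which make very large amounts of one secreted protein, loss of the kinase PERK causes diabetes in mice and people, and palmitate is known to engage the pathway.

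Libraries held 13108494 to 15887448 reads in genes. Il22ra1 itself had 7 to 20 reads in sh-ctrl and 1 to 4 in sh-Il22ra1 libraries, too few for the test across genes. All 14 beta-cell markers examined, among them Ins1, Ins2, Pdx1 and Mafa, were above 1 CPM (reads scaled to a common library size with TMM factors, the unit of all levels below). Their summed level was 75789 to 114665 CPM in sh-ctrl and 68040 to 77427 CPM in sh-Il22ra1, most of it Ins2 (means of 49586 and 42876 CPM) and Iapp. Mafa, which activates insulin transcription, fell from a mean of 556 to 227 CPM, Slc2a2, the glucose carrier, from 167 to 87.3 CPM and Iapp, the islet amyloid hormone, from 30588 to 19761 CPM, while Neurod1 rose from 124 to 161 CPM. Of 8 acinar markers none reached 1 CPM, while 2 of 5 markers of other islet hormone cells did, with the list summing to 243 to 295 CPM in sh-ctrl and 145 to 158 CPM in sh-Il22ra1, nearly all of it Gcg. The 5 leukocyte markers summed to 18.3 to 26.6 CPM in sh-ctrl and 5.41 to 8.01 CPM in sh-Il22ra1, almost wholly Cd68, with Ptprc, the pan-leukocyte gene, below 0.1 CPM in both. Fibroblast markers summed to 3.09 to 6.34 CPM and 1.04 to 2.13 CPM, and endothelial markers to 3.67 to 7.92 CPM and 5.14 to 7.54 CPM. The share of reads that did not align was 12.8% to 17.3% in sh-ctrl and 8.71% to 11.8% in sh-Il22ra1. The part of these differences in the results below was not tested. In bulk RNA, fewer cells with a transcript and less of it per cell cannot be told apart. On the second principal component, with 13.7% of the variance, sh-ctrl replicates 1 (18.2) and 4 (31.9) stood apart from the other 10 libraries (-17.7 to 6.27), so results are also given without this pair.

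The promoters below are shown because ATF4 and its C/EBP partners are known to act through letters of the form TGATGNAA, the core of the C/EBP-ATF composite or amino acid response element. RefSeq windows of GRCm38.p6 from 250 bases before to 50 after the annotated start were matched for 36 of the 43 members, 42 windows in all, and searched on both strands. The letters occurred in 10 of these 36 members (27.8%), against 4.51% of the 27025 genes with a window in the table and 3.97% of all 32851 windows. Members were chosen by name, many as targets of these factors, so the higher share can follow from the choice itself. They were found in Atf3, Nupr1, Trib3, Chac1, Asns, Pycr1, Slc7a11, Slc1a4, Vldlr and Fgf21. The ER stress element, CCAAT and CCACG with 9 bases of any kind between them, was in no member window and in 0.137% of all genes, and it does not contain the letters of the first motif. A match describes letters only, and its absence says only that the letters are not in this window. Stretches are written 5′ to 3′ on the gene's strand, with positions counted from +1 at the start, and capitals mark the matched letters, which read as TTGCATCA or TTACATCA where the match is on the other strand.
Fgf21 (chr7:45615491-45615710, minus strand, bases -220 to -1): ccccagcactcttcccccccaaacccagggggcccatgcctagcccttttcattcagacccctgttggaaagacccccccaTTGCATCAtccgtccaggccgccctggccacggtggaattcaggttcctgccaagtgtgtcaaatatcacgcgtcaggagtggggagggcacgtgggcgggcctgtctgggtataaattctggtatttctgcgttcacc
Atf3 (chr1:191183334-191183533, minus strand, bases -200 to -1): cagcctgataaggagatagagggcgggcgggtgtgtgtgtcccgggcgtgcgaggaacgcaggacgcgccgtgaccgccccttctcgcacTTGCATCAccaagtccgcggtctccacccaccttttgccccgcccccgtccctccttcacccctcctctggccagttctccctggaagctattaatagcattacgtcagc
Chac1 (chr2:119351002-119351182, plus strand, bases -240 to -60): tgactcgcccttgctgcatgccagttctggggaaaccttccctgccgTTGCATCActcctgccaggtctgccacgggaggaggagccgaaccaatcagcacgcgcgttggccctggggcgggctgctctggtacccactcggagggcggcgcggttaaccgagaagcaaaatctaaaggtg
Asns (chr6:7693210-7693329, minus strand, bases -120 to -1): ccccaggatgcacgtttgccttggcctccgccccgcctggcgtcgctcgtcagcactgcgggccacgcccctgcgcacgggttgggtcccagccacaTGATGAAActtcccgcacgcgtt
Slc1a4 (chr11:20332694-20332853, minus strand, bases -140 to 20): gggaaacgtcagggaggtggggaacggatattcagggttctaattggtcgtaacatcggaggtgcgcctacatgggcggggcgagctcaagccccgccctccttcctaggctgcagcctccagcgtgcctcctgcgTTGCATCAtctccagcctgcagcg
Slc7a11 (chr3:50443614-50443753, minus strand, bases -140 to -1): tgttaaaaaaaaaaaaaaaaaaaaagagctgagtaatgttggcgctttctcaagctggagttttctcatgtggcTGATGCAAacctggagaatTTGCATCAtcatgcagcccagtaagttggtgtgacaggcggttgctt
Trib3 (chr2:152344031-152344190, minus strand, bases -130 to 30): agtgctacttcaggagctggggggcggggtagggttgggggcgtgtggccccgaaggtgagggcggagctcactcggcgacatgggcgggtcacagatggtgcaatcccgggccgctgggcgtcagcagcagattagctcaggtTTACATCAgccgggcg

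**Figure D1:**
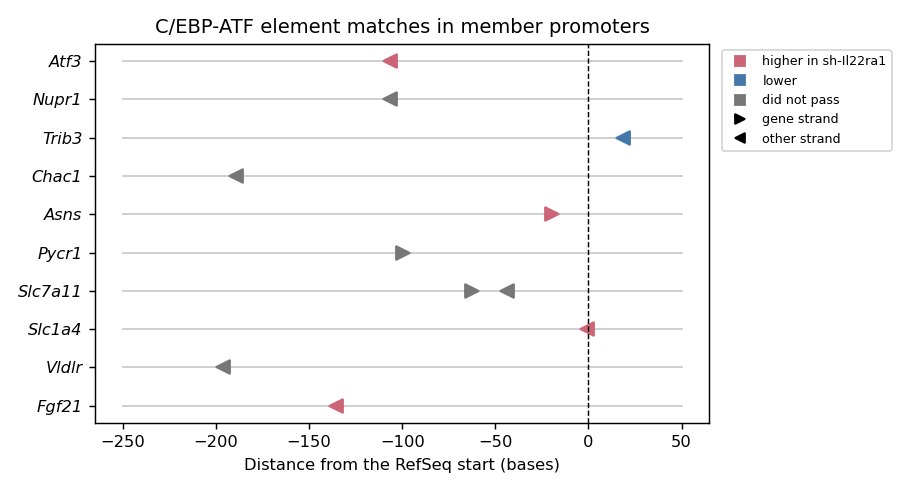
Position of each TGATGNAA match (arrowheads, pointing right on the gene's strand and left on the other) in the windows of the 10 members that hold one, against distance in bases from the RefSeq start (dashed line). Colours give the call in the comparison of sh-Il22ra1 with sh-ctrl: 4 members were higher, 1 was lower and 5 did not pass.

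Holding the letters did not go with one direction. Of the 10 members with a match, Fgf21, Slc1a4, Atf3 and Asns rose in sh-Il22ra1, Trib3 fell, and Nupr1, Chac1, Pycr1, Slc7a11 and Vldlr did not pass. The median log2 fold change was 0.087 over the 10 members with a match and 0.11 over the 26 others that had a window. The medians leave out the members without a window: Ppp1r15b, Aldh1l2, Cth, Slc7a3, Slc7a5, Slc1a5 and Eif4ebp1. Some of these are among the larger changes, with 0.72 for Cth, 0.68 for Slc1a5, 0.62 for Slc7a5 and -0.62 for Eif4ebp1. Slc7a11, the one member with 2 matches, gave 0.094.

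After Il22ra1 knockdown 5 of 8 amino acid transporters and several amino acid enzymes were higher, Fgf21 more than doubled, and Gdf15, Trib3, Eif4ebp1 and Cbs were lower, while most of the transcription factors of the pathway did not pass. Of the 43 members, 18 were higher, 7 lower and 18 did not pass at an adjusted p of 0.05 (edgeR, quasi-likelihood). That is 41.9% higher and 16.3% lower, against 25.4% higher and 26.5% lower among all 13102 tested genes. The share called in either direction, 58.1%, lay near the 51.9% of all genes. Members were chosen with earlier results of these data known, so the differences from all genes can follow from the choice. The 2 groups did not overlap in 14 members that were higher (32.6%, against 13.5% of all genes) and 5 that were lower (11.6%, against 14.6%), when 28.1% of all genes were apart in either direction. The median log2 fold change was 0.10 over the members and -0.0043 over all tested genes, and the sizes ranged from -1.34 to 1.11. Without sh-ctrl replicates 1 and 4, 25 members were higher, 9 lower and 9 did not pass, when 28.5% of all genes were higher and 31.3% lower.

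**Figure D2:**
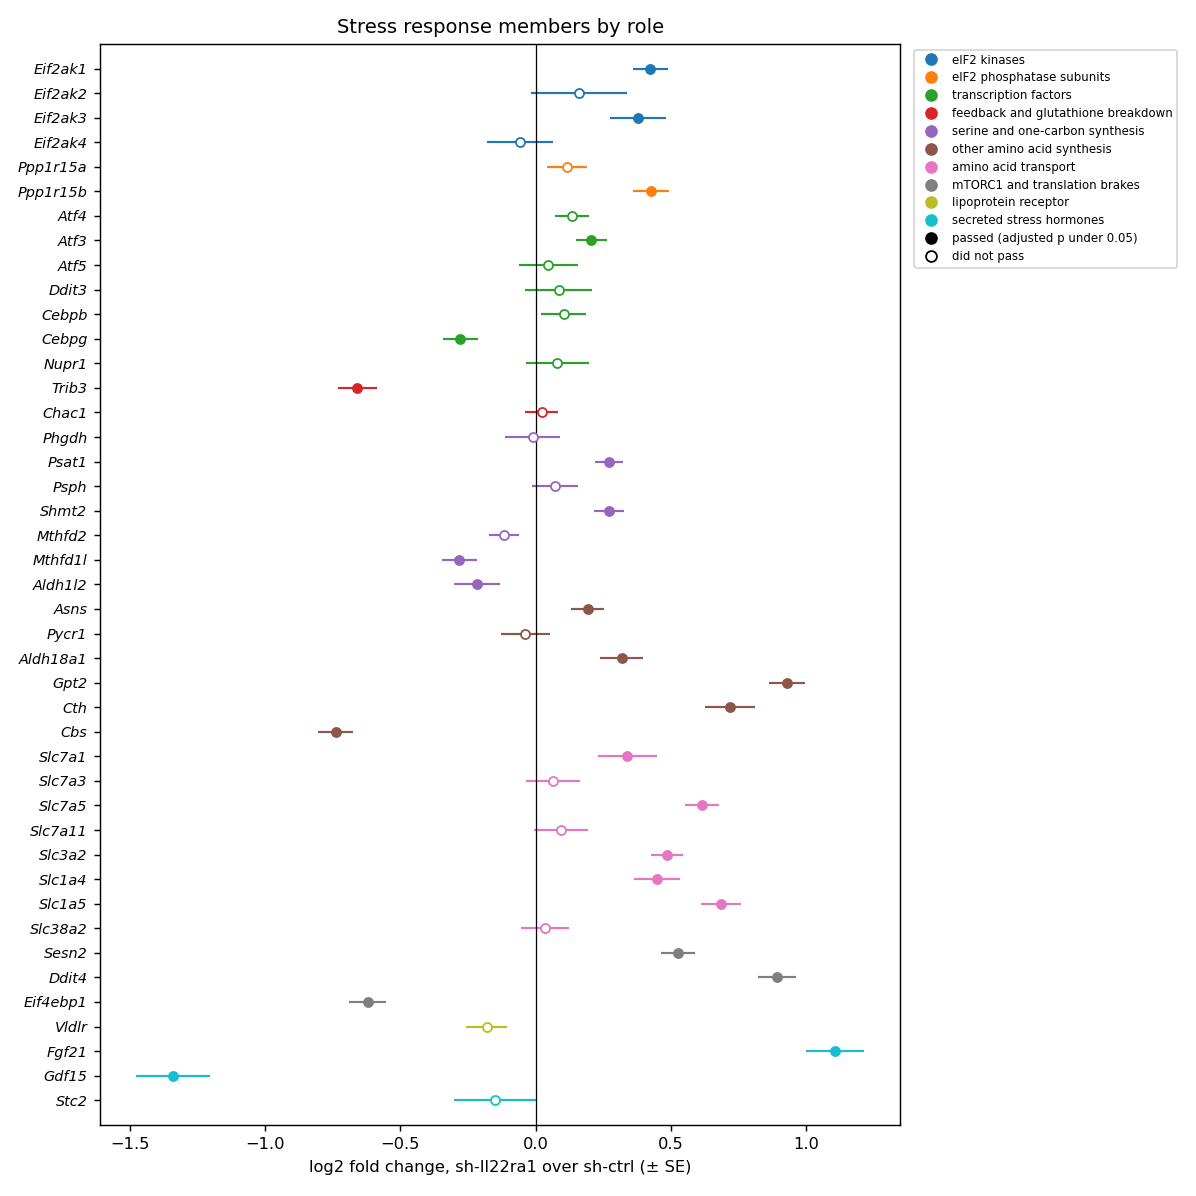
Log2 fold change of sh-Il22ra1 over sh-ctrl (x axis, points, with SE bars, 6 libraries a group) for the 43 members, ordered and coloured by role. Filled points passed the edgeR test: 18 lie to the right of 0, 7 to the left, and Fgf21 and Gdf15 are at the ends.

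The 4 kinases that phosphorylate eIF2 did not move together. Eif2ak3, the gene of PERK, which senses misfolded protein in the endoplasmic reticulum, stood at 45.5, 57.4, 63.9, 38.7, 49.95 and 63.4 CPM in sh-ctrl replicates 1 to 6 and at 63.6, 71.4, 77.1, 60.8, 68.2 and 74.1 CPM in sh-Il22ra1 replicates 1 to 6. It rose from 53.1 ± 10.2 to 69.2 ± 6.25 CPM (SD, n = 6 each), a log2 fold change of 0.38 (SE 0.105, edgeR adjusted p = 0.00545). The groups overlapped, and the 2 lowest libraries were sh-ctrl replicates 1 and 4, without which the log2 fold change was 0.22 (edgeR adjusted p = 0.0112). Eif2ak1, the heme-regulated kinase HRI that also relays mitochondrial stress, rose from 50.3 ± 3.52 to 67.5 ± 4.07 CPM (SD, n = 6 each) with no overlap (0.42, SE 0.0639). Its exons share 11.6% of their bases with Aimp2 or Ankrd61. Eif2ak4, the gene of GCN2, which senses uncharged tRNA, stood at 8.46, 12.3, 9.15, 8.17, 11.4 and 11.4 CPM in sh-ctrl and 8.77, 9.02, 11.02, 9.43, 8.53 and 11.9 CPM in sh-Il22ra1. The groups overlapped throughout, with a log2 fold change of -0.058 and a 95% interval of -0.31 to 0.20. Eif2ak2, the RNA-sensing kinase PKR, gave 0.16 (95% interval -0.21 to 0.53) at 5.44 ± 1.46 and 6.13 ± 1.52 CPM (SD, n = 6 each). Per kilobase of transcript, PERK and HRI mRNA stood at 11.8 and 11.6 CPM in sh-ctrl, above GCN2 (1.95) and PKR (1.26).

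The regulatory subunits that bring protein phosphatase 1 to eIF2 and end the signal are the stress-induced Ppp1r15a (GADD34) and the constitutive Ppp1r15b (CReP). Ppp1r15b rose from 167 ± 16.0 to 224 ± 14.8 CPM (SD, n = 6 each; 0.43 on the log2 scale, SE 0.0679), and every sh-Il22ra1 library lay above every sh-ctrl library. Its exons share 11.4% of their bases with a predicted gene. Ppp1r15a gave 0.12 (SE 0.0747, edgeR adjusted p = 0.197). Its highest library of all was sh-ctrl replicate 4 at 222 CPM, and without that library it passed at 0.18 (edgeR adjusted p = 0.0103), as it did with offsets for transcript length and GC content (0.18, 0.0246). Leaving out the highest sh-ctrl library lowers the sh-ctrl mean by construction, so that pass gives no independent support for a rise. With the offsets, more of all tested genes were called higher than without them.

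Among the 7 transcription factors, 1 rose, 1 fell and 5 did not pass, when 25.4% of all tested genes were higher and 26.5% lower. Atf4, the central factor, stood at 888, 746, 825, 888, 722 and 730.1 CPM in sh-ctrl and at 892, 888, 843, 886, 873 and 879.7 CPM in sh-Il22ra1. The sh-Il22ra1 libraries were close together and overlapped sh-ctrl, whose replicates 1 and 4 were its highest, and the log2 fold change was 0.13 (SE 0.0628, edgeR adjusted p = 0.0827). It passed without sh-ctrl replicate 1 (0.17, edgeR adjusted p = 0.0323) or replicate 4 (0.15, 0.0295), and leaving out either lowers the sh-ctrl mean by construction. Ddit3, the gene of the death-promoting factor CHOP, stood at 169, 109.7, 119, 202, 135 and 116 CPM in sh-ctrl and at 173, 151, 135, 164, 137 and 142 CPM in sh-Il22ra1. Its lowest and highest libraries were both in sh-ctrl, and the log2 fold change was 0.086 with a 95% interval of -0.17 to 0.35. Atf3, a stress-induced repressor, rose slightly without overlap, from 72.7 ± 4.04 to 83.9 ± 4.34 CPM (SD, n = 6 each; 0.21, SE 0.0573). Cebpg, a C/EBP partner of ATF4, fell from 131 ± 12.6 to 108 ± 6.55 CPM (SD, n = 6 each; -0.28, SE 0.0662), also without overlap. After offsets for transcript length and GC content its log2 fold change was -0.18. With all libraries and no offsets, Atf5 (0.048), Cebpb (0.10) and the small stress cofactor gene Nupr1 (0.080) did not pass. With those offsets Atf4 (0.10, edgeR adjusted p = 0.0488), Atf5 (0.17, 0.0489) and Cebpb (0.29, 5.13e-06) passed. Cebpb did so too without sh-ctrl replicate 4 (0.17, edgeR adjusted p = 0.0315). The offsets also raised the median log2 fold change of all tested genes from -0.0043 to 0.041, and more of these genes were called higher. For Atf4 the log2 fold change was smaller with the offsets (0.10) than without them (0.13). The exons of Ddit3 share 10.9% of their bases, and those of Cebpb 20.7%, with other annotated genes.

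Without sh-ctrl replicates 1 and 4 all 7 factors passed, 6 of them upward, when 28.5% of all tested genes were higher and 31.3% lower. The log2 fold change was then 0.31 for Ddit3 (edgeR adjusted p = 0.000312), 0.30 for Nupr1, 0.21 for Atf5, 0.20 for Atf4 and 0.19 for Cebpb, with edgeR adjusted p of at most 0.0117 among the 5. The pair was chosen from these same data and held the 2 highest sh-ctrl levels of Atf4, Atf3, Atf5, Ddit3 and Nupr1. Leaving it out lowers their sh-ctrl means by construction, so these p-values give no independent support for a rise. Within sh-ctrl, replicates 1 and 4 were the 2 highest libraries for 15 of the 43 members (34.9%, against 20.96% of all tested genes) and the 2 lowest for 13 (30.2%, against 21.3%). Those highest in this pair were Atf4, Atf3, Atf5, Ddit3, Nupr1, Ppp1r15a, Trib3, Asns, Phgdh, Psph, Slc3a2, Slc7a3, Slc1a5, Eif4ebp1 and Gdf15. Nupr1, for example, was at 561 and 541 CPM in sh-ctrl replicates 1 and 4, at 337 to 376 CPM in the other 4 sh-ctrl libraries and at 408 to 510 CPM in sh-Il22ra1. Those lowest in the pair were Eif2ak2, Eif2ak3, Eif2ak4, Ppp1r15b, Mthfd2, Aldh1l2, Aldh18a1, Gpt2, Slc7a1, Slc7a5, Slc7a11, Slc1a4 and Sesn2. Without the pair the log2 rises of Gpt2 (0.83), Slc7a5 (0.54), Sesn2 (0.45), Ppp1r15b (0.33) and Slc1a4 (0.31) were smaller. Those of Slc3a2 (0.52) and Slc1a5 (0.71), highest in the pair, were larger. The same pair had the highest shares of reads that did not align (16.3% and 17.3%, against 12.8% to 15.2% in the other 4), and the cause of the split within sh-ctrl was not tested. No member called with all 12 libraries lost its call without the pair.

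**Figure D3:**
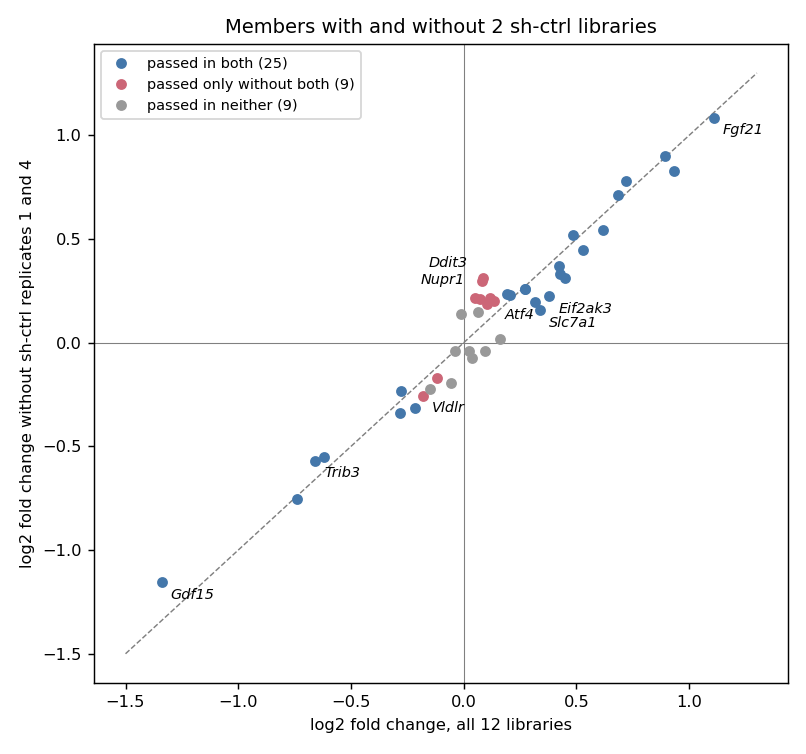
Log2 fold change of each member with all 12 libraries (x axis) and without sh-ctrl replicates 1 and 4 (y axis), with the line of equality dashed. The 25 members that passed in both lie near the line, 9 passed only without the pair, led by Ddit3 and Nupr1, and 9 passed in neither.

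Trib3, a pseudokinase that binds ATF4 and CHOP and restrains them, fell. It stood at 507, 419, 428, 546, 451 and 426 CPM in sh-ctrl and at 299, 298, 257, 316, 288 and 302 CPM in sh-Il22ra1. Every sh-Il22ra1 library was below every sh-ctrl library, and the level was 1.58-fold lower (log2 fold change -0.66, SE 0.0724, edgeR adjusted p = 5.61e-07). Chac1, which breaks down glutathione and is another marker of the response, stood at 281 ± 23.4 and 286 ± 13.9 CPM (SD, n = 6 each), with a 95% interval of -0.11 to 0.15 for the log2 fold change.

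Of 7 genes of serine and one-carbon synthesis, 2 were higher, 2 lower and 3 did not pass. Those shares are near the 25.4% higher and 26.5% lower of all tested genes. Psat1, the aminotransferase of serine synthesis, rose from 654 ± 22.1 to 789 ± 35.5 CPM and Shmt2, which moves the serine carbon into mitochondrial folate, from 1226 ± 55.7 to 1481 ± 68.7 CPM (SD, n = 6 each), both by 0.27 on the log2 scale and without overlap. The mitochondrial folate genes Mthfd1l (-0.28, SE 0.0654) and Aldh1l2 (-0.22, SE 0.0846) fell, and both overlapped between groups. The call of Aldh1l2 was close to the threshold (edgeR adjusted p = 0.0404) and ended without sh-ctrl replicate 2, 3, 5 or 6, without sh-Il22ra1 replicate 2, 3, 4, 5 or 6 (values from -0.28 to -0.17 over all single omissions) and after offsets for length and GC content (-0.075, edgeR adjusted p = 0.259). Its exons share 14.1% of their bases with another gene. Phgdh, the first enzyme of serine synthesis, gave -0.011 (95% interval -0.23 to 0.20), Psph gave 0.074 and Mthfd2 gave -0.12. Without sh-ctrl replicates 1 and 4, Psph (0.21) and Mthfd2 (-0.17) passed in opposite directions, and Mthfd2 also passed without sh-ctrl replicate 4 alone (-0.15) and with the offsets (-0.19). Within sh-ctrl that pair was highest for Psph and lowest for Mthfd2, so these omissions widen both differences by construction.

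Of the 6 other enzymes of amino acid synthesis, 4 were higher and 1 lower, against 25.4% and 26.5% of all tested genes. Gpt2, the mitochondrial alanine aminotransferase, stood at 146, 181, 176, 141, 162 and 178 CPM in sh-ctrl and at 289, 314, 329, 306, 326 and 313 CPM in sh-Il22ra1. The groups were far apart and the rise was 1.91-fold (log2 fold change 0.93, SE 0.0674, edgeR adjusted p = 2.63e-09). Asns, asparagine synthetase and the best known target of the amino acid response, stood at 1147, 1022, 1109, 1193, 1047 and 997 CPM in sh-ctrl and at 1275, 1176, 1229.8, 1342, 1276 and 1153 CPM in sh-Il22ra1. The groups overlapped and the rise was small (0.19, SE 0.0609, edgeR adjusted p = 0.0124), and it came to 0.12 with offsets for length and GC content. Aldh18a1, which makes the proline precursor, rose by 0.32 (SE 0.0792), or 0.20 without sh-ctrl replicates 1 and 4. Pycr1, which completes proline synthesis, gave -0.038 (95% interval -0.23 to 0.15).

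The 2 enzymes that carry homocysteine to cysteine went opposite ways. Cbs, the first of them, stood at 218, 216, 249.6, 253, 222 and 253 CPM in sh-ctrl and at 131, 147, 149.8, 151, 127 and 141 CPM in sh-Il22ra1. Every sh-Il22ra1 library was below every sh-ctrl library, and the level was 1.67-fold lower (log2 fold change -0.74, SE 0.0645, edgeR adjusted p = 3.20e-08). Cth, the second, stood at 132, 108, 95.6, 108, 111 and 97.8 CPM in sh-ctrl and at 205, 189, 152, 194, 191 and 144 CPM in sh-Il22ra1. All 6 sh-Il22ra1 libraries were above sh-ctrl, although replicates 3 and 6 were nearer to it than the other 4, and the level was 1.65-fold higher (0.72, SE 0.0922, edgeR adjusted p = 3.57e-06). Per kilobase of transcript, Cbs and Cth stood at 37.8 and 59.9 CPM in sh-ctrl and at 22.7 and 98.7 CPM in sh-Il22ra1.

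**Figure D4:**
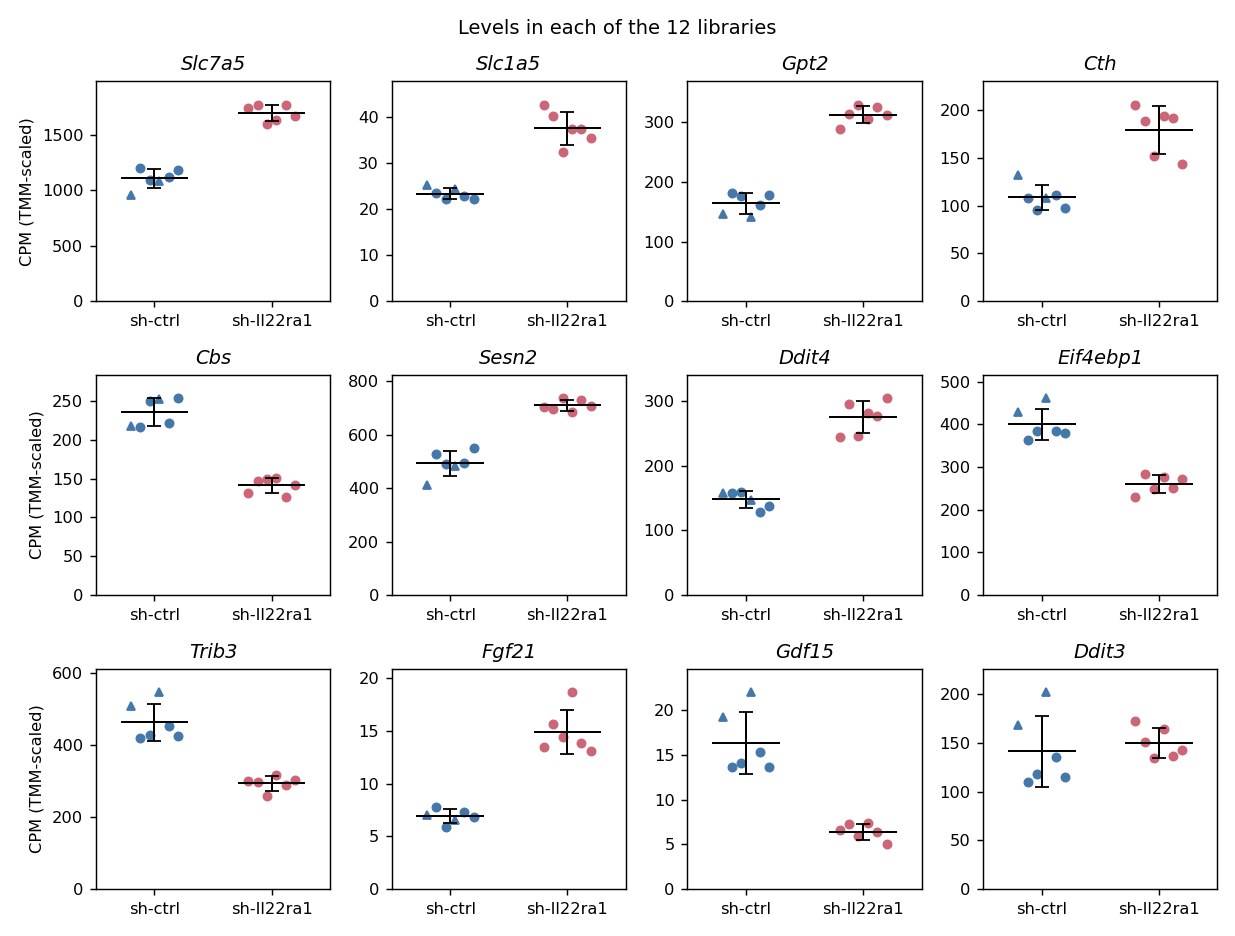
CPM (y axis, from 0) of 12 members in each library of sh-ctrl (blue) and sh-Il22ra1 (red), with triangles for sh-ctrl replicates 1 and 4, and the mean and SD of 6 libraries in black. The groups are apart in every panel except that of Ddit3, where the triangles are the 2 highest sh-ctrl libraries.

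Amino acid transporters were higher in 5 of 8 cases, lower in none, and 3 did not pass. Over all tested genes 25.4% were higher and 26.5% lower. Slc7a5, the light chain of the large neutral amino acid exchanger, stood at 958, 1203, 1094, 1083, 1123 and 1187 CPM in sh-ctrl and at 1742, 1772, 1602, 1636, 1769 and 1666 CPM in sh-Il22ra1. All sh-Il22ra1 libraries lay above all sh-ctrl libraries, and the rise was 1.53-fold (log2 fold change 0.62, SE 0.0618, edgeR adjusted p = 1.82e-07). Slc3a2, the heavy chain that brings Slc7a5 to the membrane, rose with it from 1029 ± 61.6 to 1441 ± 73.9 CPM (SD, n = 6 each; 0.49, SE 0.0581), and per kilobase of transcript it was the highest of the 43 members in sh-ctrl at 566 CPM. Slc1a5, a glutamine carrier, was a low transcript at 25.3, 23.6, 22.1, 24.3, 22.8 and 22.2 CPM in sh-ctrl and 42.7, 40.2, 32.3, 37.4, 37.3 and 35.5 CPM in sh-Il22ra1. It was 1.61-fold higher without overlap (0.68, SE 0.0739, edgeR adjusted p = 4.47e-07). Slc1a4, a carrier of small neutral amino acids with the letters of the composite element across its start, rose by 0.45 (SE 0.0851) without overlap. Slc7a1, the carrier of arginine and lysine, rose by 0.34 (SE 0.108) with overlap. Its value was 0.16 without sh-ctrl replicates 1 and 4 (edgeR adjusted p = 0.0285) and 0.54 with offsets for length and GC content. Slc7a11, the cystine importer that pairs with the same heavy chain, gave 0.094 (95% interval -0.12 to 0.30). It passed only with those offsets (0.33, edgeR adjusted p = 3.54e-05), under which more of all tested genes were also called higher. Slc38a2 (0.036, 95% interval -0.15 to 0.22) and Slc7a3 (0.064, 95% interval -0.14 to 0.27) did not pass.

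The 3 members that restrain growth signalling or translation all passed, 2 upward and 1 downward, when 51.9% of all tested genes passed. Ddit4 (REDD1), an inhibitor of mTORC1, stood at 157, 157, 159, 147, 129 and 137 CPM in sh-ctrl and at 244, 296, 246, 281, 277 and 304 CPM in sh-Il22ra1. It rose 1.86-fold without overlap (log2 fold change 0.89, SE 0.0707, edgeR adjusted p = 8.45e-09). Sesn2, a leucine-sensing inhibitor of mTORC1, stood at 410.3, 526, 492, 483, 494 and 551 CPM in sh-ctrl and at 703, 695, 736, 687, 729 and 709 CPM in sh-Il22ra1. It rose 1.44-fold, also without overlap (0.53, SE 0.0638, edgeR adjusted p = 1.83e-06). Eif4ebp1, the gene of 4E-BP1, which blocks cap-dependent translation when mTORC1 is off and which supports beta-cell survival under ER stress, stood at 428, 364, 384, 461, 385 and 379 CPM in sh-ctrl and at 230.3, 283, 249.6, 277, 250.9 and 272 CPM in sh-Il22ra1. It was 1.54-fold lower, with every sh-Il22ra1 library below every sh-ctrl library (-0.62, SE 0.0686, edgeR adjusted p = 6.10e-07). Vldlr, a lipoprotein receptor induced by the pathway, gave -0.18 (SE 0.0759, edgeR adjusted p = 0.0539) and did not pass. It passed downward under 6 of 22 alternatives, among them without sh-ctrl replicate 4 (-0.26), its lowest library at 63.9 CPM, and without sh-Il22ra1 replicate 2 (-0.20), while offsets for length and GC content gave 0.015 (edgeR adjusted p = 0.851). Leaving out the lowest sh-ctrl or the highest sh-Il22ra1 library, as in these omissions, widens the difference by construction.

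The secreted hormones of the response gave the largest rise and the largest fall among the members. Fgf21, a hormone that acts on fat and liver metabolism, lies at chr7:45613886-45615490 in GRCm38 and stood at 7.001, 7.78, 5.85, 6.57, 7.35 and 6.80 CPM in sh-ctrl and 13.5, 15.7, 14.4, 18.7, 13.9 and 13.1 CPM in sh-Il22ra1. All 6 sh-Il22ra1 libraries were above all sh-ctrl libraries, and the level was 2.16-fold higher (log2 fold change 1.11, SE 0.106, edgeR adjusted p = 1.05e-07). Gdf15, a hormone that lowers food intake through a hindbrain receptor, lies at chr8:70629393-70632456 and stood at 19.2, 13.6, 14.1, 22.0, 15.3 and 13.6 CPM in sh-ctrl and 6.57, 7.26, 5.93, 7.41, 6.32 and 5.01 CPM in sh-Il22ra1. All 6 sh-Il22ra1 libraries were below all sh-ctrl libraries, of which replicates 1 and 4 were the highest, and the level was 2.53-fold lower (-1.34, SE 0.136, edgeR adjusted p = 2.03e-07). Without that pair the log2 fold change was -1.16. Stc2, a secreted stanniocalcin, was low at 5.95 ± 1.203 and 5.38 ± 0.873 CPM (SD, n = 6 each) and gave -0.15 (95% interval -0.47 to 0.17). Of all tested genes, 1.21% were called and over 2-fold higher and 3.66% called and over 2-fold lower, and Fgf21 and Gdf15 were the only members in these classes.

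**Figure D5:**
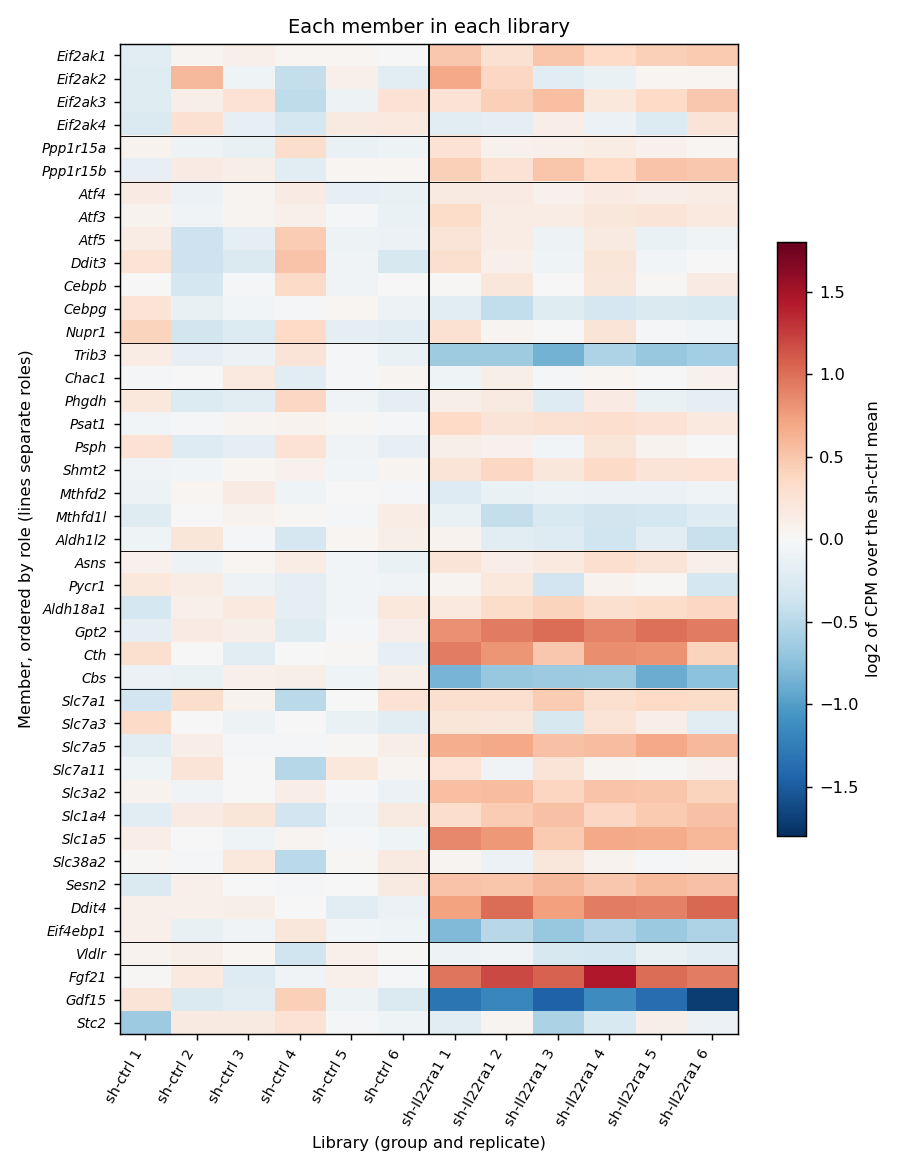
Each member (rows, by role) in each library (columns), as the log2 of its CPM over the sh-ctrl mean, with sh-ctrl left of the vertical line. Gpt2, Ddit4 and Fgf21 are high and Gdf15, Cbs and Trib3 low in all 6 sh-Il22ra1 libraries, and sh-ctrl replicates 1 and 4 are above the other sh-ctrl libraries for Nupr1 and Ddit3.

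Per kilobase of transcript, the highest members in sh-ctrl after Slc3a2 were Asns (539 CPM per kilobase), Shmt2 (536), Nupr1 (511), Phgdh (464) and Atf4 (464). The lowest were Eif2ak2 (1.26), Stc2 (1.51), Eif2ak4 (1.95) and Slc7a11 (3.82). Fgf21 and Gdf15 stood at 7.25 and 10.6 CPM per kilobase in sh-ctrl and at 15.6 and 4.15 in sh-Il22ra1, so their order turned round. Each length is that of 1 annotated transcript.

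Of 20 further genes of the eIF2 machinery and its regulators, 6 were higher, 2 lower and 12 did not pass, with a median log2 fold change of 0.0025, against 25.4% higher, 26.5% lower and a median of -0.0043 over all tested genes. Eif2b5, the catalytic subunit of eIF2B, the exchange factor that phosphorylated eIF2 inhibits, rose from 201 ± 16.9 to 275 ± 11.1 CPM (SD, n = 6 each; 0.45, SE 0.0598). Eif2s3x, the X-linked gamma subunit of eIF2, rose by 0.60 (SE 0.0827) and the eIF2B subunit gene Eif2b1 by 0.43 (SE 0.0616). Eif2s1, the alpha subunit that carries the phosphorylation site, rose by 0.44. The gene listed as 0610009O20Rik, the older symbol of Dele1, whose product relays mitochondrial stress to HRI, fell from 173 ± 7.58 to 138 ± 6.22 CPM (SD, n = 6 each; -0.33, SE 0.0525).

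Of 49 other tested genes linked to ATF4 or its amino acid response, 22 were higher, 9 lower and 18 did not pass, with a median log2 fold change of 0.091. The 4 with the smallest p were Atg12, a ubiquitin-like protein of autophagy (0.78, SE 0.0600), Avil (0.83, SE 0.0760), Got1, the cytosolic aspartate aminotransferase (0.50, SE 0.0540), and Herpud1, a factor in disposal of misfolded ER proteins (0.52, SE 0.0568). The largest change in the list went the other way: Slc43a1, a carrier of large neutral amino acids, fell from 3.98 ± 0.645 to 1.89 ± 0.335 CPM (SD, n = 6 each; -1.06, SE 0.160, edgeR adjusted p = 2.29e-05) without overlap. The glycine carrier Slc6a9 gave -0.080 and did not pass. The amino acid carriers Slc7a6 (0.48, SE 0.0835, without overlap) and Slc38a1 (0.39, SE 0.104, with overlap) of this list were higher. Of all tested genes, 25.4% were higher and 26.5% lower. Both further lists were also chosen with earlier results of these data known, so their shares give no independent support.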

How the data were processed

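RNA of 12 Min6 libraries (6 sh-ctrl, 6 sh-Il22ra1) was sequenced as paired ends. The deposited files hold whole-number read counts per gene symbol. HISAT2 2.0.5, HTSeq and mm10 are named, per the submitters' processing notes, with annotation and strand setting not given in the sources used here. Rows of unassigned reads were left out, among them the reads that did not align (8.71% to 17.3%). Counts were tested in R 4.3.3 with edgeR 4.0.16 on the whole table: filterByExpr (minimum count 10, minimum total 15), TMM scaling, glmQLFit, then a two-sided glmQLFTest whose p-values were adjusted (Benjamini-Hochberg) over 13102 genes, with a threshold of 0.05. Levels are counts-per-million (CPM) of the TMM-scaled library size, with no prior count. The SE is the size of the log2 fold change over the root of F, and 95% intervals use the fit's degrees of freedom. The fit was tested on simulated data, where it recovered 44% of 1.25-fold, 88% of 1.5-fold, 100% of 2-fold and 98% of 3-fold changes. A small change in a member that did not pass can therefore have been missed.

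Members and lists were chosen with earlier results of these data known. Full values are given for members that passed with a log2 change of at least 0.5 and for Eif2ak3, Eif2ak4, Atf4, Ddit3, Trib3 and Asns, and up to 4 called genes of each further list are named, 0610009O20Rik among them. Eif2s1, Slc43a1, Slc6a9, Slc7a6, Slc38a1 and the beta-cell genes with values were added after their values were seen. GENCODE M21 (GRCm38) gave lengths, positions and exon overlap, and RefSeq (GRCm38.p6) the promoters. Where a gene's exons overlap another's, reads there cannot be assigned with certainty. The closest pair of libraries within a group differed with a chi-square over degrees of freedom of 3.96, and none was treated as a duplicate. Alternatives were other scalings, DESeq2 1.42.0, limma-voom (limma 3.58.1), other filters, the replicate number as a block, offsets for length and GC content, and omitted libraries.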

Additional observations from a re-analysis of the deposited data

Results flagged for a closer look

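Single libraries stood far from the other 5 of their group in 4 of 86 member and group combinations, all in sh-ctrl, and chance alone gives about 1 in 20 such groups. Eif2ak1 was at 43.5 CPM in sh-ctrl replicate 1, against 49.96 to 53.4 CPM in the other sh-ctrl libraries. Slc7a3 was at 236 CPM in sh-ctrl replicate 1, with the next highest at 188 CPM. Slc38a2 was at 97.4 CPM in sh-ctrl replicate 4, with the next lowest at 135 CPM. Vldlr was at 63.9 CPM in the same library, with the next lowest at 82.9 CPM. The 4 values come from sh-ctrl replicates 1 and 4, the pair that stood apart on the second principal component.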

How the results depend on the processing

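Under 22 alternatives, 24 of the 25 called members kept their direction and their call, the exception being Aldh1l2. Counts of members called stayed between 18 and 25 higher and 6 and 9 lower. The 25 came without sh-ctrl replicates 1 and 4. In that setting, and with offsets for length and GC content, more of all tested genes were also called higher. Of the 18 members that did not pass, 3 kept both sign and call under all 22. With the replicate number as a block (replicate block), 18 members were higher and 8 lower, and Vldlr was the one member whose call changed (-0.18, edgeR adjusted p = 0.0238). The numbers are not said to pair libraries, and same-numbered libraries correlated by -0.033 to 0.23 in their deviations from the group means. Of the sh-ctrl libraries, only replicate 4 correlated best with the sh-Il22ra1 library of its own number. Signs of members that had not passed turned when single libraries were left out, with ranges of -0.13 to 0.0031 for Eif2ak4, -0.015 to 0.15 for Atf5, -0.027 to 0.060 for Chac1, -0.056 to 0.063 for Phgdh, -0.088 to 0.017 for Pycr1, -0.0018 to 0.15 for Slc7a11 and -0.057 to 0.079 for Slc38a2. Without sh-ctrl replicates 1 and 4, signs turned for Chac1 (-0.042), Phgdh (0.14), Slc7a11 (-0.040) and Slc38a2 (-0.072). With offsets for length and GC content they turned for Eif2ak4 (0.072), Phgdh (0.030) and Vldlr (0.015), and the median of all genes went from -0.0043 to 0.041. None of these passed after the turn, and the cause was not tested. Depth allowed all 43 members to be tested, with the widest SE in the low transcripts Eif2ak2 (0.177) and Stc2 (0.150).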

Other observations

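Within the list of other genes linked to ATF4, grouped by function after their values were seen, 8 of 13 cytosolic tRNA synthetase genes were higher in sh-Il22ra1, 1 was lower and 4 did not pass, against 25.4% higher and 26.5% lower among all tested genes. Nars, for asparagine, rose from 341 ± 14.6 to 443 ± 17.6 CPM (SD, n = 6 each; 0.38 on the log2 scale, SE 0.0516), and Cars (0.39), Wars (0.28) and Iars (0.42) rose too. Yars, for tyrosine, fell from 392 ± 29.7 to 302 ± 13.0 CPM (SD, n = 6 each; -0.37, SE 0.0581). Asns and Nars, which make asparagine and load it on its tRNA, were both higher.

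Of 7 autophagy genes in the same list, also grouped after their values were seen, 2 were higher, 3 lower and 2 did not pass. Among all tested genes 25.4% were higher and 26.5% lower. Atg12 rose from 35.6 ± 2.45 to 61.2 ± 1.72 CPM, while Atg7, the activating enzyme that acts on ATG12, fell from 37.8 ± 2.27 to 24.9 ± 2.59 CPM (SD, n = 6 each; -0.61, SE 0.0761). Sqstm1, the cargo receptor p62, fell from 1625 ± 195 to 1291 ± 94.9 CPM (SD, n = 6 each; -0.33). In both these genes and Atg12 the groups did not overlap, as in 28.1% of all tested genes in either direction. The exons of Sqstm1 share 17.3% of their bases with Mrnip, and those of Becn1, the other gene called higher, 43.9% with Cntd1.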
